A study of Mus musculus with 9 samples.

Results

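The genes described here are 44 mouse genes that drive the cell cycle and copy the genome, taken by gene name from the 36346 genes of a brain RNA-seq table. All 44 were found, and they lie on 16 chromosomes. Brains of C57BL/6 wild-type mice were collected 72 h after a sham (control) procedure, after intracerebral haemorrhage (ICH), a bleed into the brain tissue, or after ICH with pterostilbene (ICH+PTE), a plant stilbenoid related to resveratrol. Each group held 3 mice and each mouse gave 1 library, so the series has 9 libraries. The sources used here do not give the age and sex of the mice, the ICH model, the side or region taken or the dose and route of PTE, and no group received PTE without ICH. Values are FPKM, mapped fragments scaled by transcript length and by the library's mapped total. This scaling does not make libraries fully comparable. Summed FPKM ranged from 269706 (sham 3) to 320422 (ICH+PTE 2), and results under other scalings are given at the end.

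Cells about to divide first load the MCM helicase onto replication origins with the help of Cdc6 and Cdt1, then fire these origins in S phase once cyclin-dependent kinases (Cdks) and their cyclins are active. The sliding clamp Pcna holds the polymerases on DNA while ribonucleotide reductase supplies deoxynucleotides. Cyclin B with Cdk1, the Polo and Aurora kinases and the spindle checkpoint then carry the cell through mitosis. E2F factors switch on many of the S phase genes and Foxm1, with the B-Myb-MuvB complex, many of the mitotic genes, so that transcripts of this kind are widely used as signs of proliferation. Nearly all neurons of the adult brain have left the cycle, whereas microglia, astrocytes, oligodendrocyte precursors and vascular cells can divide after an injury.

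Promoter sequence is shown first, because genes of the S phase and of the mitotic arm that move together are known to carry different promoter elements. Sequences are from RefSeq (GRCm38.p6), from 250 bases before to 50 bases after an annotated start, read 5′ to 3′ on the strand of the gene. A window was available for 35 of the 44 genes, and the other 9 (Mcm4, Gins1, Gins2, Pole, Ccnd1, Ccne2, Ccna2, Aurkb and Foxm1) are named only. Capitals mark every match, on either strand, to an E2F motif (TTTCCCGC, TTTCGCGC, TTTGCCGC or TTTGGCGC), to a CCAAT box (CCAAT) or to the cell cycle homology region, CHR (TTTGAA or TTCGAA). On the opposite strand these read GCGGGAAA, GCGCGAAA, GCGGCAAA and GCGCCAAA, ATTGG, and TTCAAA and TTCGAA. The helicase subunits Mcm6 (chr1:128359656-128359955, minus strand) and Mcm5 (chr8:75109259-75109558, plus strand) stand for replication, the mitotic kinase Cdk1 (chr10:69352863-69353162, minus strand) and its partner cyclin B2 (chr9:70421505-70421804, minus strand) for mitosis. Cyclin E1 (chr7:38107441-38107740, minus strand) is shown because its transcript was not called after ICH.
Mcm6: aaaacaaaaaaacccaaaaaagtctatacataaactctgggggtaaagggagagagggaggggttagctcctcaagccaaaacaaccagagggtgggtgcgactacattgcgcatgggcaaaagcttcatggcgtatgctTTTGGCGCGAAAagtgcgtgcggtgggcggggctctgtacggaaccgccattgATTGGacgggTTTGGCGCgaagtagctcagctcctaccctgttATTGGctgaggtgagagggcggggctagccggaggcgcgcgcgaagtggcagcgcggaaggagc
Mcm5: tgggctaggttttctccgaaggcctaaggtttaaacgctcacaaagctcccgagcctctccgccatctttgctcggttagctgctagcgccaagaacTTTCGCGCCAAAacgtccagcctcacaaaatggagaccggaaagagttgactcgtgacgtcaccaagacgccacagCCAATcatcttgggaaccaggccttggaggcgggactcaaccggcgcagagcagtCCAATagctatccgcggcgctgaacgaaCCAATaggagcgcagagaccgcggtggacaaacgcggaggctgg
Cdk1: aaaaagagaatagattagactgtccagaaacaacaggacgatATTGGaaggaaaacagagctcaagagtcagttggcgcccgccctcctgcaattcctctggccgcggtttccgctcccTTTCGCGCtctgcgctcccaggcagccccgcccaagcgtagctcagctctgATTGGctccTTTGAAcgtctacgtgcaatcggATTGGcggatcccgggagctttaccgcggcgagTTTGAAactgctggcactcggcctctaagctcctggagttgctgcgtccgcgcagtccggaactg
Ccnb2: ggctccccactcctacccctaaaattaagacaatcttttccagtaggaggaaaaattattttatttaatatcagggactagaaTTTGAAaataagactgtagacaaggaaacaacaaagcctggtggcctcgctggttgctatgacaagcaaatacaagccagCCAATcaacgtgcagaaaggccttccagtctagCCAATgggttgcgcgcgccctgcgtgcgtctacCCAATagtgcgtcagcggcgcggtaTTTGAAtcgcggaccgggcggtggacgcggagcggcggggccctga
Ccne1: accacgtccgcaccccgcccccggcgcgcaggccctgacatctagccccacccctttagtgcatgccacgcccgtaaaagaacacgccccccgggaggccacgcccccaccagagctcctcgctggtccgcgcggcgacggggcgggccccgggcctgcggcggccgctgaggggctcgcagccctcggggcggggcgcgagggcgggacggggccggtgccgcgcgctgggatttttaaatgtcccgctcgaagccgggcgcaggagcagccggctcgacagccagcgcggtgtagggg

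In the Mcm6 window the E2F matches began at -110, -106 and -47, counted from the annotated start, those at -110 and -106 overlapping on opposite strands, and CCAAT boxes lay at -57 and -14. Mcm5 carried E2F matches at -153 and -149 and CCAAT boxes at -77, -22 and 7. Cdk1 held all 3 motifs, with CHR matches at -71 and -15. Ccnb2 had CCAAT boxes at -87, -54 and -21, CHR matches at -167 and 5 and no E2F match, while the Ccne1 window held none of the 3 motifs. The windows of E2f1, Tyms, Birc5, Rfc4 and Rfc5 also held none, and these genes were all called higher after ICH. The E2f1 window (chr2:154569377-154569676, minus strand) lay wholly inside the deposited coordinates of the gene (chr2:154559407-154569892). It does not reach the 5′ end listed there and says nothing of motifs at that end. The windows of Cdc6 and Mcm7, whose matches are counted below, also lay inside their genes. An E2F match was found for 8 of 18 replication genes (44.4%), namely Mcm3, Mcm5, Mcm6, Mcm7, Cdc6, Cdt1, Rfc3 and Pola1, and for 1 of 14 genes of G2 and mitosis (7.14%), Cdk1. Mki67 and Top2a were counted with G2 and mitosis. Ccne1, Cdk2 and E2f1 were in neither set, and of these Cdk2 held an E2F match, at -140. A CHR match was found for 4 of the 18 (22.2%) and for 12 of the 14 (85.7%), Ccnb1 and Birc5 being the exceptions. CCAAT boxes occurred in 13 of 18 (72.2%) and 13 of 14 (92.9%). Among all 27025 genes of the RefSeq table, 2.60% held the E2F motif, 41.1% a CCAAT box and 21.7% the CHR, and among the 10936 whose transcripts were tested here 4.43%, 42.6% and 15.7%. A gene with several annotated starts counted once if any of its windows held a match. In the 100 bases before the start alone the shares were 11.1% and 0% for E2F, 61.1% and 78.6% for CCAAT and 5.56% and 42.9% for the CHR in the replication and mitotic genes, against 0.981%, 21.6% and 7.18% of all genes. These shares describe letters, not bound factors, and the base composition of the windows was not matched. Of the 100 matches in these genes, 1 pair of different motifs overlapped, in Mcm7.

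**Figure D1:**
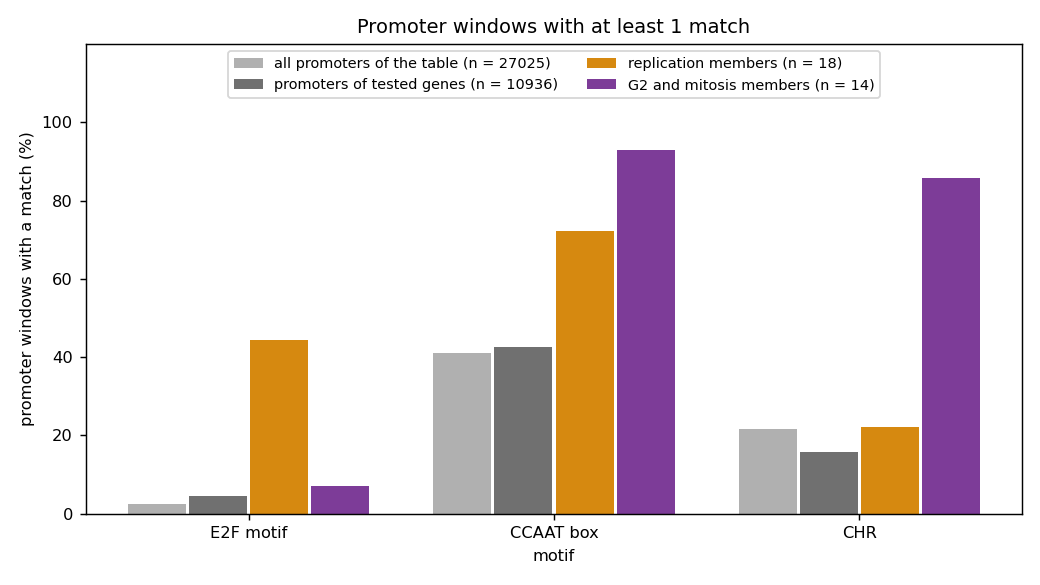
Share of promoter windows (percent, vertical axis) with at least 1 match to each motif (horizontal axis) for all genes of the RefSeq table, for genes tested here, for replication genes and for genes of G2 and mitosis. The E2F bar is highest in the replication genes (44.4%) and the CHR bar in the genes of G2 and mitosis (85.7%).

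The libraries were brain by their markers. In sham, 8 neuronal markers summed to between 516 and 584 FPKM, and this sum was 168 to 237 for ICH and 388 to 564 for ICH+PTE. The share of summed FPKM from mitochondrially encoded genes was lowest in ICH (13.6% to 16.7%), next to 21.7% to 22.9% for sham and 25.5% to 28.9% for ICH+PTE. Fatty acid binding protein Fabp2, an enterocyte gene, was listed at 0 in the 3 sham libraries and in ICH 1 and ICH 3, at 0.122 FPKM in ICH 2 and at 0.975, 1.02 and 1.68 in ICH+PTE. Fabp1, the most abundant of the 22 small-intestine genes looked up, did not go that way, at 5.01 to 10.7 in sham, 5.43 to 7.99 after ICH and 2.03 to 8.37 with PTE. No count or read total is in the table, so the depth behind each value is unknown. Nothing in the labels says more of the replicates than that they were different mice, and p-values measure the spread between them.

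After ICH, the brain held far more cell cycle and replication transcript than after sham. The summed FPKM of the 44 genes was 72.1, 81.3 and 68.1 in the sham libraries, 255, 344 and 353 in ICH, and 81.9, 162 and 122 in ICH+PTE, a ratio of means of 4.30 for ICH over sham. The groups sham and ICH did not overlap in this sum, and ICH 2 and ICH 3 lay above ICH 1. Of the 44, 40 reached 1 FPKM in at least 3 libraries and were tested with limma on log2(FPKM + 0.5). Between ICH and sham 38 of the 40 rose, 0 fell and 2, the E cyclins Ccne1 and Ccne2, were not called (Benjamini-Hochberg adjusted p under 0.05 over all 15376 tested genes, of which 31.6% were called higher and 32.1% lower). Their median log2 difference was 1.97, beside -0.02 for all tested genes. In 42 of the 44 every ICH library lay above every sham library, against 35.7% of all tested genes. A gene can pass the low-value filter through the group where it is high, and 15 of the tested genes had no sham library at 1 FPKM or more, so these counts are descriptions. In bulk tissue, more dividing cells and more transcript per cell cannot be told apart.

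**Figure D2:**
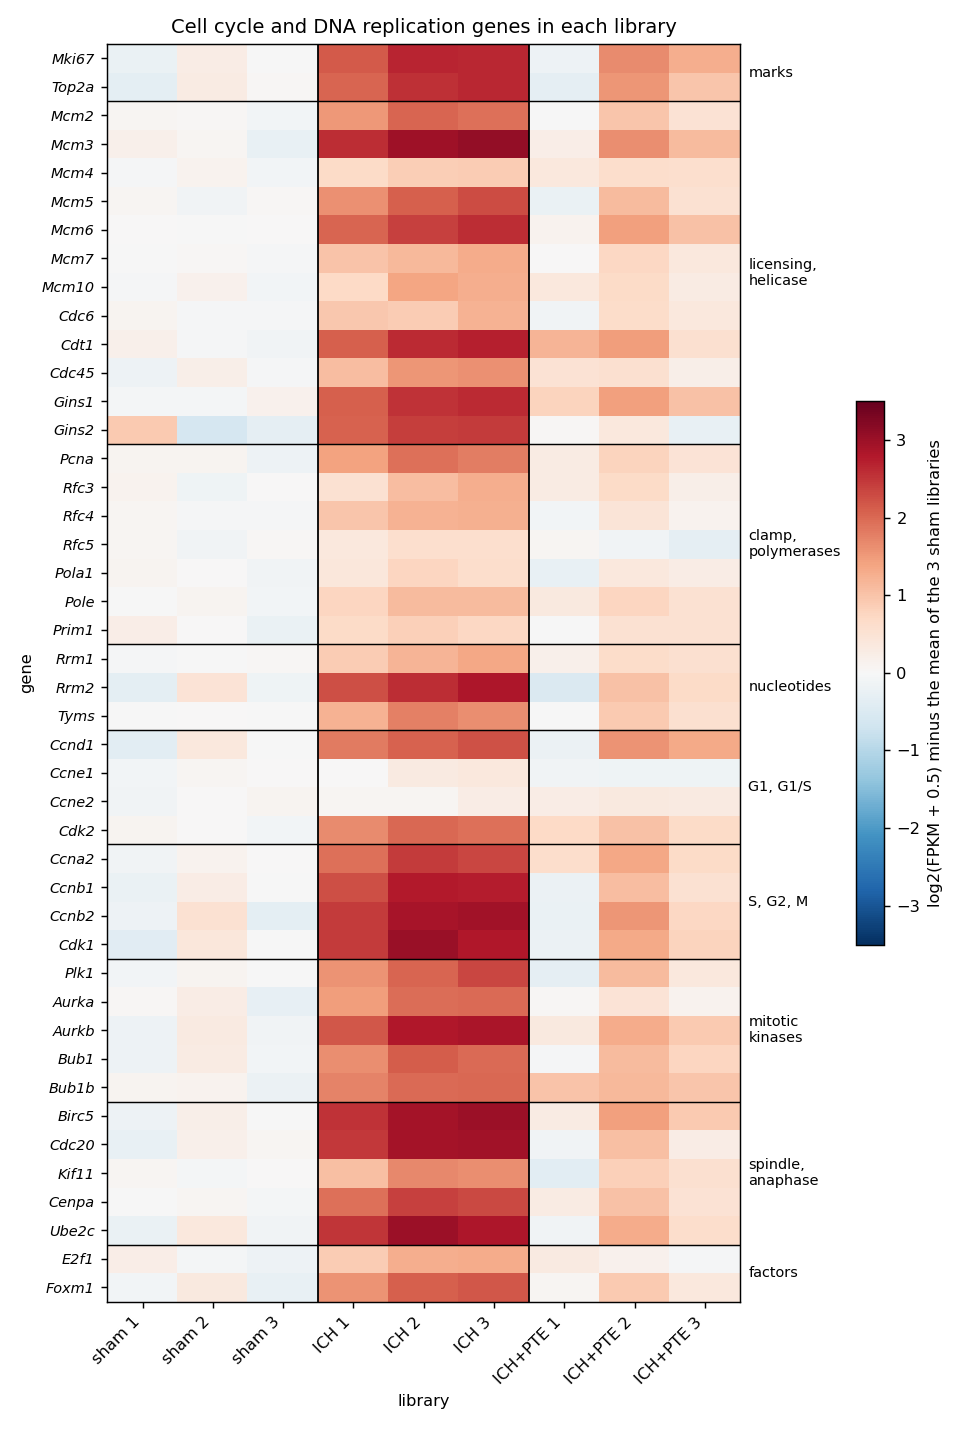
Each row is 1 of the 44 genes, each column 1 library, and colour gives log2(FPKM + 0.5) minus the mean of the 3 sham libraries. The ICH columns are red in nearly all rows, with Ccne1 and Ccne2 pale, ICH+PTE 1 is close to the sham columns and ICH+PTE 2 is the reddest of its group.

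In ICH+PTE these transcripts were lower than in ICH, at a mean summed FPKM of 122 beside 317 in ICH and 73.8 in sham. Between ICH+PTE and ICH 37 of 40 tested genes fell, 0 rose and 3 (Mcm4, Prim1 and Ccne2) were not called, while 30.5% of all tested genes were called lower and 26.4% higher. The median log2 difference of the 40 was -1.34, beside -0.02 for all tested genes. In 41 of the 44 genes every ICH+PTE library lay below every ICH library, against 34.5% of all tested genes, and in 1, Ccne2, every ICH+PTE library lay above (30.3%). This comparison shares the ICH libraries with the one above, so a fall in the same genes is not a separate observation of them. The limit of the low-value filter holds here too. Mcm2, Cdt1, Cdc45, Tyms, Ccnb1, Cdk1, Aurkb, Bub1, Birc5, Kif11, Cenpa and Foxm1 reached 1 FPKM in fewer than 3 libraries outside ICH. They passed the filter only with the ICH libraries, where they are high, so their calls in every comparison are descriptions.

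Against sham, 11 of 40 genes were higher in ICH+PTE, 0 were lower and 29 were not called, while 11.3% of all tested genes were called higher and 12.1% lower. The 11 were Mcm3, Mcm4, Mcm6, Cdt1, Gins1, Pcna, Cdk2, Ccna2, Aurkb, Bub1b and Birc5, and the median log2 difference of the 40 was 0.49 (all tested genes, -0.03). Every ICH+PTE library lay above every sham library in 17 of the 44 genes (18.0% of all tested genes), and below in 1, Ccne1 (20.7%). The count changed with single libraries. Without ICH+PTE 1 it was 28 of 40, with 12.6% of all tested genes called higher. It was 6 without each of sham 1, sham 2, sham 3, ICH 3, ICH+PTE 2 and ICH+PTE 3, 7 without ICH 2, 6 with only the groups compared and 5 with no filter on low values. Of the 11, Mcm4, Cdt1, Gins1, Cdk2 and Bub1b kept their call in every setting run.

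The ICH+PTE libraries were not alike in these genes. In ICH+PTE 1, 20 of the 44 genes lay above every sham library, 16 within the sham range and 8 below it. The corresponding counts were 40, 2 and 2 in ICH+PTE 2 and 38, 4 and 2 in ICH+PTE 3. Over all tested genes, 32.6%, 35.5% and 35.5% lay above every sham library in ICH+PTE 1, 2 and 3, and 41.4%, 38.2% and 34.1% below, so that a single library is often outside the sham range. ICH+PTE 1 was the lowest of its group for 34 genes and ICH+PTE 2 the highest for 40. Within ICH, library 1 was the lowest for 42 genes. The 20 genes of ICH+PTE 1 above the sham range were Mcm3, Mcm4, Mcm6, Mcm10, Cdt1, Cdc45, Gins1, Pcna, Rfc3, Rfc5, Pole, Rrm1, Ccne2, Cdk2, Ccna2, Aurkb, Bub1b, Birc5, Cenpa and E2f1. Mki67, Top2a, Ccnb1 and Cdk1 were not among them.

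**Figure D3:**
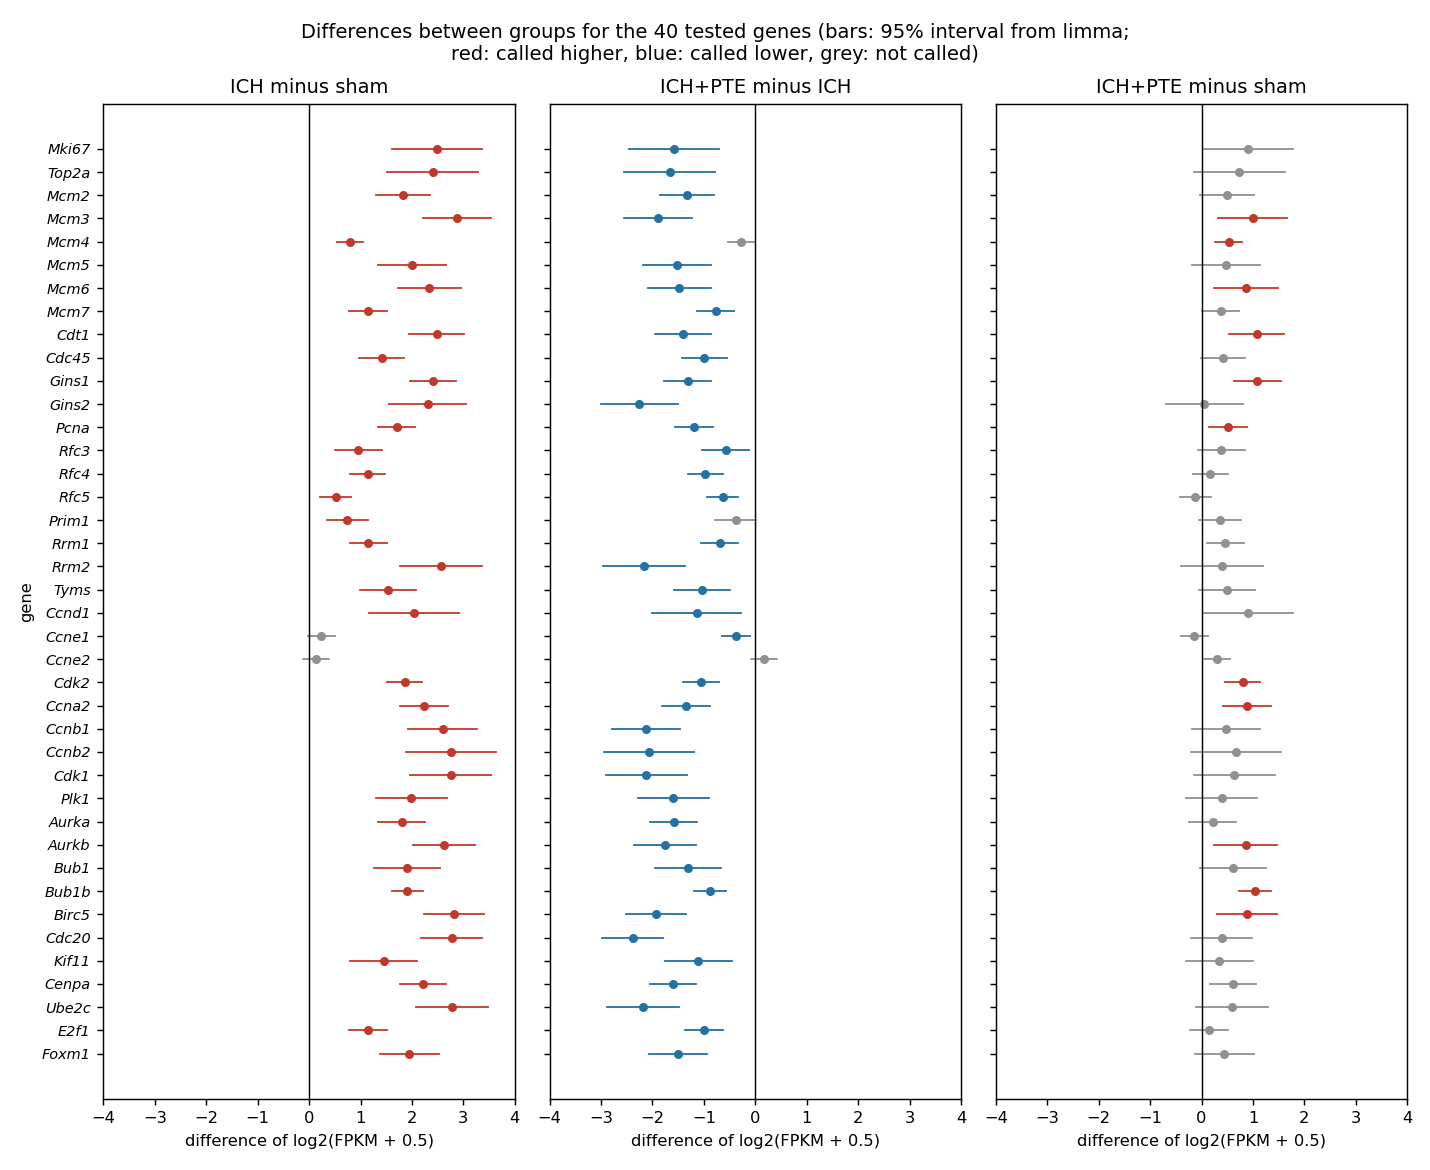
Difference of log2(FPKM + 0.5) between groups for the 40 tested genes (points, with the 95% interval from limma), in 1 panel per comparison. All points but those of Ccne1 and Ccne2 lie clear of 0 on the higher side for ICH against sham, most lie below 0 for ICH+PTE against ICH, and most intervals include or come near 0 for ICH+PTE against sham.

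Among the proliferation marks, Mki67 (chr7:135689784-135716361, minus strand), which encodes the Ki-67 protein that coats mitotic chromosomes, stood at 0.646, 1.12 and 0.840 FPKM in sham, 5.55, 8.07 and 8.01 in ICH, and 0.689, 3.73 and 2.79 in ICH+PTE. Top2a, the topoisomerase that untangles sister chromatids, stood at 0.628, 1.25 and 0.973 in sham, 5.31, 7.86 and 8.33 in ICH, and 0.650, 3.65 and 2.30 in ICH+PTE. For both genes ICH+PTE 1 lay inside the sham range and the other ICH+PTE libraries lay between sham and ICH. Mki67 rose by a log2 difference of 2.49 ± 0.39 (SE) after ICH (limma adjusted p = 3.28e-04) and fell by 1.58 ± 0.39 with PTE (adjusted p = 0.00650). Against sham its difference of 0.91 was not called (adjusted p = 0.120) and became 1.46 without ICH+PTE 1 (adjusted p = 0.00229). Top2a rose by 2.40 ± 0.40 and fell by 1.67 ± 0.40.

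The 12 genes of origin licensing and the replicative helicase were above sham in every ICH library, and the 10 that were tested rose, by 0.80 (Mcm4) to 2.88 (Mcm3) on the log2 scale. Mcm2 to Mcm7 form the hexamer that unwinds DNA. Mcm2 stood at 0.786, 0.762 and 0.662 FPKM in sham, 3.01, 4.55 and 4.20 in ICH, and 0.733, 1.92 and 1.26 in ICH+PTE. Mcm5 stood at 1.69, 1.43 and 1.64 in sham, 5.83, 8.42 and 9.68 in ICH, and 1.26, 4.02 and 2.54 in ICH+PTE. ICH+PTE 1 lay within the sham range for Mcm2 and below it for Mcm5. Mcm6 was steady in sham, at 1.58, 1.57 and 1.58, and stood at 8.03, 10.4 and 11.9 in ICH and 1.77, 5.09 and 3.72 in ICH+PTE. It rose by 2.34 ± 0.28 (adjusted p = 5.38e-05), fell by 1.47 ± 0.28 (adjusted p = 0.00137) and was higher than in sham by 0.86 ± 0.28 (adjusted p = 0.0477). That last call was lost with TPM scaling (adjusted p = 0.0676), no filter on low values (0.141) and a pseudocount of 1 (0.0528). Quantile normalization (0.0516) and a fit of only the groups compared (0.0833) lost it too, as did leaving out any one library other than ICH+PTE 1. Mcm3 rose by 2.88 ± 0.30, with sham libraries between 0.888 and 1.37 FPKM, ICH libraries between 9.47 and 13.4 and ICH+PTE libraries between 1.45 and 4.60.

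Mcm4, a subunit of the same ring, behaved differently from most of this group. It stood at 3.56, 3.99 and 3.39 FPKM in sham, 6.08, 6.96 and 7.13 in ICH, and 4.83, 5.87 and 5.72 in ICH+PTE, so that the 3 groups did not overlap but lay close together. Its log2 difference was 0.80 ± 0.11 for ICH against sham (adjusted p = 1.74e-04) and -0.28 ± 0.11 for ICH+PTE against ICH, which was not called (adjusted p = 0.0621, and 0.0477 without ICH 1). It stood above sham in ICH+PTE by 0.52 ± 0.11 (adjusted p = 0.0102). Mcm7 ranged from 3.61 to 3.82 in sham, 7.92 to 9.75 after ICH and 3.75 to 6.48 with PTE, with a rise of 1.14 ± 0.16 and a fall of 0.77 ± 0.16.

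Cdt1, which brings the MCM ring to origins and is destroyed once S phase begins, stood at 0.529, 0.400 and 0.335 FPKM in sham, 3.43, 5.16 and 5.53 in ICH, and 1.59, 2.03 and 0.858 in ICH+PTE. All its ICH+PTE libraries lay above sham, and ICH+PTE 1 was not the lowest of them. It rose by 2.48 ± 0.24 (adjusted p = 1.80e-05), fell by 1.41 ± 0.24 (adjusted p = 8.61e-04) and stayed 1.07 ± 0.24 above sham (adjusted p = 0.0121). Cdc6, the loader that works beside Cdt1, stood at 0.263, 0.188 and 0.194 in sham, 0.875, 0.821 and 1.15 in ICH, and 0.154, 0.610 and 0.421 in ICH+PTE. It was too low to be tested, as was Mcm10, an initiation factor at 0.113 to 0.225 in sham, 0.554 to 1.20 after ICH and 0.307 to 0.541 with PTE. With no filter on low values, Cdc6 differed by 1.01 (adjusted p = 0.00641) and Mcm10 by 1.11 (adjusted p = 0.00422) between ICH and sham.

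Cdc45 and the GINS subunits turn the loaded ring into a running helicase. Cdc45 stood at 0.362, 0.605 and 0.448 FPKM in sham, 1.55, 2.33 and 2.43 in ICH, and 0.861, 0.927 and 0.605 in ICH+PTE. It rose by 1.41 ± 0.20 and fell by 0.99 ± 0.20, and ICH+PTE 3 touched the top of the sham range. No sham or ICH+PTE library of Cdc45 reached 1 FPKM. It thus passed the low-value filter only through ICH, the group where it is high, and its differences are descriptions. Gins1 stood at 0.375, 0.371 and 0.509 in sham, 3.38, 4.74 and 5.10 in ICH, and 1.08, 2.0 and 1.37 in ICH+PTE. Gins1 kept its groups apart in all comparisons, at 2.40 ± 0.20 for ICH against sham (adjusted p = 7.25e-06), -1.32 ± 0.20 for ICH+PTE against ICH (adjusted p = 4.32e-04) and 1.09 ± 0.20 for ICH+PTE against sham (adjusted p = 0.00490). Its partner Gins2 was uneven in sham, at 2.75, 0.653 and 0.893, against 6.71, 8.82 and 8.87 in ICH and 1.29, 1.74 and 0.946 in ICH+PTE. It rose by 2.31 ± 0.34 and fell by 2.25 ± 0.34. Against sham its difference of 0.05 ± 0.34 was not called and changed sign under TPM scaling (-0.04), quantile normalization (-0.08) and without sham 2 (-0.24), sham 3 (-0.11) or ICH+PTE 2 (-0.11). Gse1 overlaps Gins2 by 2758 bases on the opposite strand, and whether the authors' counting used the strand is not stated.

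The clamp, clamp loader, polymerase and primase genes rose less than the helicase genes in summed level, by a ratio of means of 2.88 against 4.55. Pcna (chr2:132249162-132253314, minus strand), the sliding clamp and the most abundant of the 44 in every group mean, stood at 16.4, 16.3 and 13.4 FPKM in sham, 41.4, 59.1 and 53.8 in ICH, and 18.7, 26.6 and 21.5 in ICH+PTE. No ICH+PTE library of Pcna overlapped either other group. It rose by 1.70 ± 0.16 (adjusted p = 1.57e-05), fell by 1.19 ± 0.16 (adjusted p = 2.28e-04) and stood 0.51 ± 0.16 above sham (adjusted p = 0.0465). That last call was lost with TPM scaling (0.38, adjusted p = 0.0979), no filter (0.122) and only the groups compared (0.0515). Leaving out any one of the sham libraries, ICH 3, ICH+PTE 2 or ICH+PTE 3 lost it too. The clamp loader genes Rfc3, Rfc4 and Rfc5 rose by 0.96, 1.14 and 0.52 and fell by 0.58, 0.97 and 0.64. The rise of Rfc5 (2.61 to 3.04 FPKM in sham, 3.86 to 4.60 in ICH) was not called once haemoglobin and mitochondrially encoded genes were left out of the scaling (0.25, adjusted p = 0.113). The fall of Rfc3 (adjusted p = 0.0333) was not called in that setting (-0.35, adjusted p = 0.150), with no filter (0.0894), with only the groups compared (0.0556) or without any one of ICH 2, ICH 3, ICH+PTE 1 and ICH+PTE 3.

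Prim1, the catalytic primase subunit that lays down RNA primers, stood at 1.9, 1.54 and 1.23 FPKM in sham, 2.74, 3.11 and 2.87 in ICH, and 1.54, 2.46 and 2.46 in ICH+PTE. It rose by 0.74 ± 0.18 (adjusted p = 0.00471), and its difference of -0.38 ± 0.18 between ICH+PTE and ICH was not called (adjusted p = 0.0939), although every ICH+PTE library lay below every ICH library. Pola1 and Pole, the catalytic subunits of polymerases alpha and epsilon, were not tested. Pola1 ranged from 0.497 to 0.658 in sham, 0.919 to 1.32 after ICH and 0.395 to 0.888 with PTE, and Pole from 0.116 to 0.198, 0.599 to 0.909 and 0.325 to 0.614.

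All 3 genes of deoxynucleotide supply rose after ICH and fell with PTE. Rrm2, the subunit of ribonucleotide reductase whose level follows S phase, stood at 1.27, 2.63 and 1.49 FPKM in sham, 10.2, 12.8 and 15.5 in ICH, and 1.06, 4.05 and 3.04 in ICH+PTE. It rose by 2.56 ± 0.36 (adjusted p = 1.57e-04) and fell by 2.17 ± 0.36 (adjusted p = 6.82e-04). Rrm1, the large subunit, rose by 1.15 ± 0.16 and fell by 0.69 ± 0.16. Tyms, thymidylate synthase, which makes dTMP, went from 0.305 to 0.330 FPKM in sham to 1.41 to 2.26 after ICH and 0.309 to 1.04 with PTE. ICH+PTE 1 was within or below the sham range for Rrm2 and Tyms and above it for Rrm1.

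The G1 and G1/S group was the one that split. Ccnd1, cyclin D1, which responds to growth signals and opens G1, stood at 6.98, 12 and 9.08 FPKM in sham, 33.7, 39.7 and 44.8 in ICH, and 7.88, 28.2 and 23.7 in ICH+PTE. ICH+PTE 1 lay within sham, and the other ICH+PTE libraries were well above every sham library and below every ICH library. Ccnd1 rose by 2.04 ± 0.39 (adjusted p = 0.00113). Its fall of 1.14 ± 0.39 with PTE (adjusted p = 0.0297) was not called with no filter (adjusted p = 0.0990), with quantile normalization (0.0594), without haemoglobin and mitochondrial genes (0.0799) or without ICH 2 (0.0700) or ICH 3 (0.0858). Cdk2, the kinase partner of cyclins E and A, stood at 0.751, 0.692 and 0.607 in sham, 3.20, 4.24 and 3.98 in ICH, and 1.41, 1.91 and 1.39 in ICH+PTE. It rose by 1.86 ± 0.15 (adjusted p = 6.57e-06), fell by 1.06 ± 0.15 (adjusted p = 3.20e-04) and stayed 0.80 ± 0.15 above sham (adjusted p = 0.00577).

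The E cyclins, which activate Cdk2 at the entry to S phase, did not follow it. Ccne1 (chr7:38097984-38107534, minus strand) stood at 2.81, 3.18 and 3.05 FPKM in sham, 3.07, 3.87 and 4.05 in ICH, and 2.75, 2.64 and 2.67 in ICH+PTE. Its ICH and sham libraries overlapped, and every ICH+PTE library lay below both groups. The difference between ICH and sham was 0.24 ± 0.12 (95% interval -0.03 to 0.51, adjusted p = 0.109), and it was -0.03 once haemoglobin and mitochondrial genes were left out of the scaling but called without ICH 1 (0.35, adjusted p = 0.0323) and with array weights (0.26, adjusted p = 0.0255). Its fall of 0.38 ± 0.12 with PTE (adjusted p = 0.0222) was not called in 4 settings, among them TPM scaling (-0.34, adjusted p = 0.0556). Ccne2 (chr4:11191351-11204779, plus strand) stood at 2.28, 2.56 and 2.70 in sham, 2.68, 2.65 and 3.11 in ICH, and 3.12, 3.28 and 3.25 in ICH+PTE. It was the only one of the 44 whose ICH+PTE libraries all lay above the ICH libraries, by a margin of 3.12 over 3.11 FPKM at the nearest. Its differences of 0.14 ± 0.11 (95% interval -0.11 to 0.39, adjusted p = 0.311) for ICH against sham and 0.17 ± 0.11 (adjusted p = 0.220) for ICH+PTE against ICH were not called. They were -0.01 with TPM scaling and -0.12 without haemoglobin and mitochondrial genes for the first, and 0.40 (adjusted p = 0.0176) in the latter setting for the second. Ints8 overlaps Ccne2 by 5622 bases on the opposite strand.

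**Figure D4:**
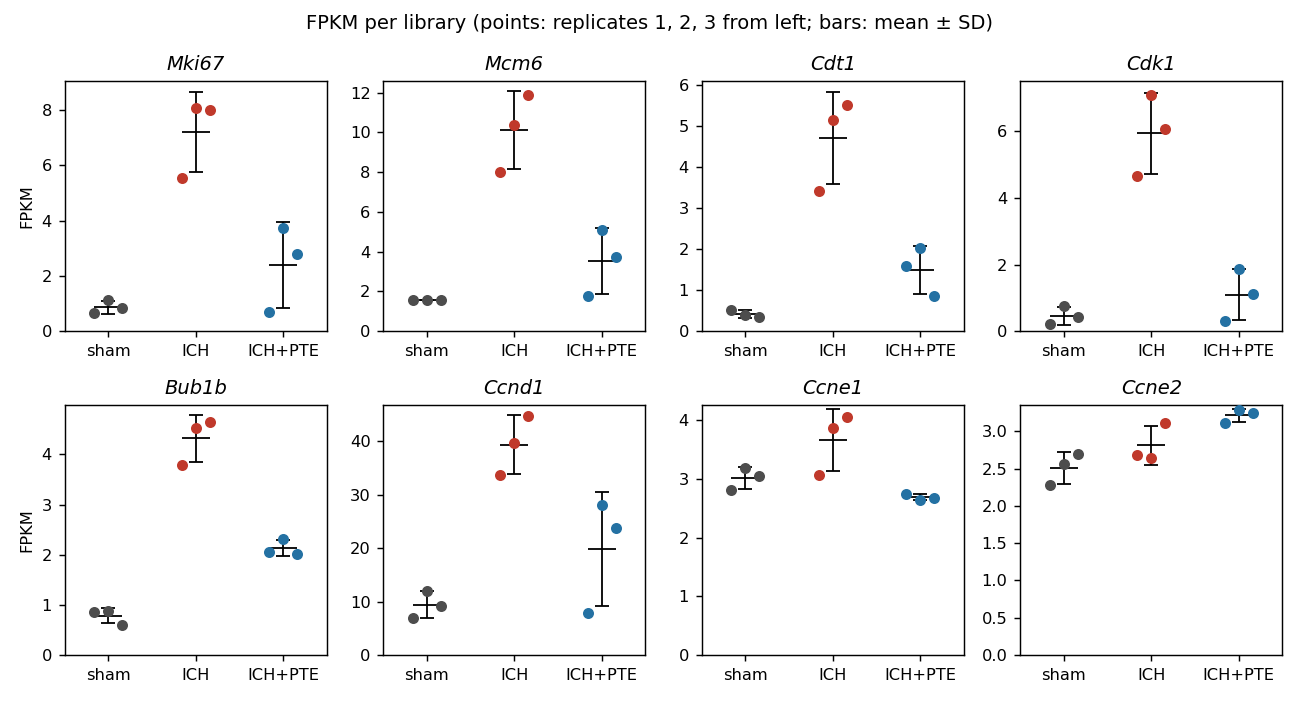
FPKM of 8 genes in each library (points, replicates 1 to 3 from the left) with the group mean and SD (bars). Mki67, Cdk1 and Ccnd1 show ICH+PTE 1 at the sham level, Cdt1 and Bub1b show all ICH+PTE libraries above sham, and Ccne1 and Ccne2 vary little between groups.

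The cyclins and kinase of S, G2 and M rose together, with a ratio of mean sums of 8.54 for ICH over sham. Ccna2, cyclin A2, needed in S phase and at mitotic entry, stood at 1.26, 1.60 and 1.43 FPKM in sham, 6.80, 9.91 and 9.18 in ICH, and 2.45, 4.46 and 2.58 in ICH+PTE. Its 3 groups did not overlap. It rose by 2.23 ± 0.21 (adjusted p = 1.36e-05), fell by 1.34 ± 0.21 (adjusted p = 4.59e-04) and stayed 0.88 ± 0.21 above sham (adjusted p = 0.0143; 0.0519 with no filter). Exosc9 overlaps it by 863 bases on the opposite strand. Ccnb1, cyclin B1, stood at 0.393, 0.753 and 0.532 in sham, 4.5, 6.66 and 6.61 in ICH, and 0.413, 1.73 and 1.01 in ICH+PTE. Cdk1, the kinase that starts mitosis with cyclin B, stood at 0.215, 0.746 and 0.440 in sham, 4.67, 7.09 and 6.07 in ICH, and 0.320, 1.86 and 1.12 in ICH+PTE. In both genes ICH+PTE 1 lay within the sham range. Cdk1 rose by 2.76 ± 0.35 (adjusted p = 8.76e-05), fell by 2.12 ± 0.35 (adjusted p = 6.83e-04) and was not called against sham (0.63, adjusted p = 0.218). Ccnb2, with the promoter shown above, rose by 2.75 ± 0.39 and fell by 2.07 ± 0.39, and its ICH+PTE libraries ranged from 0.861 to 4.22 FPKM.

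The mitotic kinases and checkpoint genes all rose after ICH, by 1.80 (Aurka) to 2.61 (Aurkb), and all fell with PTE. Plk1, the Polo-like kinase of mitotic entry, stood at 1.15, 1.38 and 1.25 FPKM in sham, 4.71, 6.77 and 8.40 in ICH, and 0.921, 3.28 and 1.78 in ICH+PTE. Aurkb, the catalytic part of the chromosomal passenger complex, stood at 0.233, 0.519 and 0.252 in sham, 3.25, 5.29 and 5.43 in ICH, and 0.545, 1.54 and 1.06 in ICH+PTE. Its lowest ICH+PTE library lay just above its highest sham library, and the call against sham (0.86, adjusted p = 0.0455) was lost in 12 settings, among them TPM scaling (0.79, adjusted p = 0.0542). Bub1b, which encodes the checkpoint kinase-like protein BubR1, stood at 0.863, 0.880 and 0.607 in sham, 3.79, 4.53 and 4.64 in ICH, and 2.05, 2.31 and 2.02 in ICH+PTE. The ICH+PTE libraries were close together and far from both other groups, ICH+PTE 1 included. Bub1b rose by 1.91 ± 0.14 (adjusted p = 3.21e-06), fell by 0.87 ± 0.14 (adjusted p = 5.30e-04) and stayed 1.04 ± 0.14 above sham (adjusted p = 0.00104). Its partner Bub1 ranged from 0.181 to 0.427 in sham, 1.86 to 2.84 after ICH and 0.238 to 1.15 with PTE and was not called against sham (0.61, adjusted p = 0.155). Aurka, the kinase of the spindle poles, ranged from 0.739 to 1.33, 3.69 to 5.58 and 1.08 to 1.64.

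Genes of the spindle, centromere and anaphase had the highest ratio of mean sums between ICH and sham among the 9 groups, at 9.17. Birc5, or survivin, a partner of Aurora B, stood at 0.366, 0.637 and 0.480 FPKM in sham, 5.24, 6.98 and 7.34 in ICH, and 0.712, 2.18 and 1.36 in ICH+PTE. It rose by 2.82 ± 0.26 (adjusted p = 1.33e-05) and fell by 1.93 ± 0.26 (adjusted p = 2.16e-04). Its excess over sham of 0.88 ± 0.26 (adjusted p = 0.0360) was lost in 9 settings, among them no filter (adjusted p = 0.111) and the groups compared alone (0.0727). Cdc20, the activator of the anaphase-promoting complex, rose by 2.78 ± 0.27 and fell by 2.38 ± 0.27. Ube2c, the ubiquitin-conjugating enzyme of that complex, rose by 2.78 ± 0.32 and fell by 2.18 ± 0.32. Cenpa, the histone variant of centromeres, rose by 2.22 ± 0.20, and Kif11, the motor that separates spindle poles, by 1.45 ± 0.29. All 5 genes had ICH+PTE libraries entirely below ICH.

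Of the transcription factors, E2f1, an activator of S phase genes, stood at 2.11, 1.59 and 1.46 FPKM in sham, 3.57, 4.79 and 4.89 in ICH, and 2.26, 1.96 and 1.63 in ICH+PTE. It rose by 1.15 ± 0.17 (adjusted p = 1.95e-04), fell by 1.0 ± 0.17 (adjusted p = 6.81e-04) and overlapped sham with PTE. Foxm1, an activator of mitotic genes, stood at 0.582, 0.963 and 0.450 in sham, 2.90, 4.37 and 4.70 in ICH, and 0.701, 1.65 and 0.968 in ICH+PTE. It rose by 1.95 ± 0.26 (adjusted p = 1.05e-04) and fell by 1.50 ± 0.26 (adjusted p = 8.02e-04).

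A wider list of 159 other cell cycle genes, of which 131 were tested, went mostly the same way: 98 rose and 8 fell after ICH (median log2 difference 1.12), 11 rose and 92 fell with PTE (-0.74), and 18 were higher and 3 lower in ICH+PTE than in sham (0.26). Of the 131, 74.8% were thus higher after ICH (31.6% of all tested genes) and 70.2% lower with PTE (30.5%). Against sham 13.7% were higher, which is near the 11.3% of all tested genes. Among 28 tested spindle and kinetochore genes 26 rose and 1 fell after ICH, the exception being Ckap5, a microtubule polymerase also used outside division, at -0.53 (adjusted p = 0.00384), while Bub3 was not called (0.18). Of 20 tested cohesin, condensin and mitotic exit genes 17 rose and 0 fell. The most abundant in ICH were Cks2, a Cdk subunit, which rose by 2.94 and fell by 2.24, and Hmgb2, a chromatin protein of cycling cells, which rose by 2.24, fell by 0.70 and stayed 1.53 above sham (adjusted p = 0.00136). Of 22 polymerase and fork genes 18 rose and 0 fell. Pold4 rose by 1.61 and fell by 1.28, whereas Pole3, a histone-fold subunit of polymerase epsilon, rose by 0.67, was not called with PTE (-0.03, adjusted p = 0.870) and stood 0.64 above sham (adjusted p = 0.0129).

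Origin recognition and firing genes were more mixed, with 10 of 19 tested higher and 1 lower after ICH, led in level by Gmnn, the Cdt1 inhibitor geminin (1.54 after ICH, -1.19 with PTE), and Gins4 (0.58 and -0.50). In nucleotide supply 6 of 9 rose and 1 fell, with Nme1 at 0.24 and Dtymk at 0.52. Of 8 tested checkpoint and homologous repair genes 6 rose and 0 fell. Cdc25b, a phosphatase that activates Cdk1, rose by 0.70, and Wee1, the kinase that restrains Cdk1, was not called after ICH (-0.20, adjusted p = 0.254) and rose by 0.37 with PTE (adjusted p = 0.0471). In the Rb, E2F and DREAM list, 8 of 15 rose and 4 fell, with E2f4 at 0.70 and Tfdp1 at 0.27. Over all tested genes 31.6% were called higher and 32.1% lower after ICH, so the 4 that fell are no result about that list. Between ICH+PTE and ICH, the genes called lower were 26 of 28 for the spindle, 18 of 20 for cohesin, condensin and exit, 17 of 22 for polymerases and forks, 8 of 19 for origins, 6 of 9 for nucleotides, 5 of 8 for checkpoints and 6 of 15 for Rb, E2F and DREAM, against 30.5% of all tested genes, to which the origin and Rb lists came closest. Those called higher were 2, 1, 0, 4, 1, 1 and 2 (26.4% of all tested genes). Against sham, 2, 5, 2, 4, 2, 1 and 1 were called higher and 0, 1, 0, 1, 0, 0 and 0 lower, in the same order, beside 11.3% and 12.1% of all tested genes, so these few calls are no result about the lists.

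The D cyclins and their kinases were not uniform. Ccnd2, another D cyclin, went the other way from Ccnd1, at 6.10, 7.63 and 7.60 FPKM in sham, 3.80, 3.58 and 4.35 in ICH, and 2.70, 4.03 and 4.57 in ICH+PTE. It fell by 0.78 after ICH (adjusted p = 0.00257), was not called with PTE (-0.07, adjusted p = 0.746) and stood lower than in sham (-0.85, adjusted p = 0.00713). Ccnd3 rose by 1.32 and fell by 0.82, Cdk4 rose by 1.45 and fell by 1.40, and Cdk6 rose by 1.20 and fell by 0.92.

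Of 7 genes for Cdk inhibitors, which hold the cycle back, 6 were tested, and of these 4 rose and 0 fell after ICH, 3 fell with PTE and 1 was higher in ICH+PTE than in sham. The shares of all tested genes were 31.6% higher, 30.5% lower and 11.3% higher, and 6 genes are too few to be set against them. Cdkn1a, or p21, a target of p53, stood at 3.52, 5.59 and 5.65 FPKM in sham, 19.4, 16.8 and 17.4 in ICH, and 41.3, 16.5 and 15.7 in ICH+PTE. It was highest in ICH+PTE 1, the library with the lowest summed level of the 44 genes in its group, and the other ICH+PTE libraries were at the ICH level. This contrast rests on 1 library, and a link between these levels was not tested. Cdkn1a rose by 1.78 after ICH (adjusted p = 7.46e-04), was not called between ICH+PTE and ICH (0.30, adjusted p = 0.444) and stood 2.08 above sham with PTE (adjusted p = 0.00199). Cdkn1c rose by 1.54 and fell by 1.83, Cdkn2b rose by 1.16 and fell by 0.77, and Cdkn2c rose by 2.36 and fell by 1.95. Cdkn1b and Cdkn2d were not called in any comparison, at 0.01 and 0.03 after ICH. Cdkn2a was not tested, at 0 to 0.147 in sham, 0.851 to 1.18 after ICH and 0 to 0.558 with PTE.

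Markers of several cell types, though not of all, moved with these genes, and their part in the result was not tested. All 8 microglia and macrophage markers lay above sham in every ICH library (7 called higher), and together they reached 144 to 192 FPKM in sham, 1625 to 1898 after ICH, and 164, 330 and 235 in ICH+PTE 1, 2 and 3. Those sums put the ICH+PTE libraries in the same order as the 44 genes did. That order was not particular to them. The sums for monocytes, oligodendrocyte precursors, progenitors, astrocytes and mural cells with fibroblasts, given below, had it too. Those for endothelium, ependyma, neurons, neutrophils, lymphocytes and erythroid cells did not. The 6 monocyte markers, all called higher after ICH, summed to 37.4 to 68.6, 2474 to 3135 and 52.5 to 129, nearly all of it Lyz2. The other 5 summed to 1.16 to 1.67, 41.9 to 48.4 and 21.6 to 29.1, and with PTE Ms4a6c, Chil3 and Ccr2 stood above sham (3.70, 3.47 and 1.18) while Chil3 was not called against ICH (-0.33, adjusted p = 0.427). The 8 markers of oligodendrocyte precursors summed to 85.8 to 135, 192 to 238 and 66.2 to 105. All 8 were called higher after ICH and 7 lower with PTE (31.6% and 30.5% of all tested genes). The exception with PTE was Pdgfra, at means of 4.35, 6.06 and 7.58 FPKM in sham, ICH and ICH+PTE. In ICH+PTE against sham 1 was called higher and 2 lower (11.3% and 12.1%). The 6 endothelial markers summed to 27.0 to 41.5, 106 to 119 and 53.1 to 70.6, and the 6 mural and fibroblast markers to 23.0 to 31.0, 136 to 231 and 30.5 to 47.2. The 6 astrocyte markers summed to 397 to 526, 939 to 1000.01 and 588 to 794, but this followed Gfap, and the other 5 summed to 279 to 303, 279 to 317 and 251 to 264, with Slc1a2 called lower after ICH (-0.90). Of the 8 progenitor and neuroblast markers 1 rose and 4 fell after ICH, and they summed to 21.4 to 24.1, 19.4 to 22.7 and 30.0 to 36.6. This sum hid opposite courses. Nes, the 1 that rose, had means of 2.64, 11.8 and 17.9 FPKM in sham, ICH and ICH+PTE, whereas Dlx1 had means of 8.03, 1.20 and 4.55. The 5 ependymal markers summed to 16.9 to 33.8, 11.6 to 21.3 and 13.4 to 18.3.

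Neutrophil and lymphocyte markers were low. The 10 neutrophil and granule genes summed to 1.21 to 2.26 FPKM in sham, 14.5 to 23.7 after ICH and 13.0 to 27.8 with PTE, the 2 of them that were tested were not called between ICH+PTE and ICH, and 3 of the 10 were at 0 in all sham libraries. The 9 lymphocyte genes summed to 1.16 to 1.40, 3.33 to 5.96 and 0.360 to 2.45. The 6 erythroid genes summed to 12.1 to 32.5, 60.5 to 92.3 and 30.5 to 266, the highest in ICH+PTE 3. The 22 small-intestine genes summed to 8.24 to 13.7, 11.3 to 12.4 and 10.9 to 18.5, and without Fabp1 to 2.96 to 3.29, 4.0 to 5.92 and 7.9 to 10.2, with 9 of the 22 at 0 in all sham libraries, 5 in all ICH libraries and 1 in all ICH+PTE libraries.

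**Figure D5:**
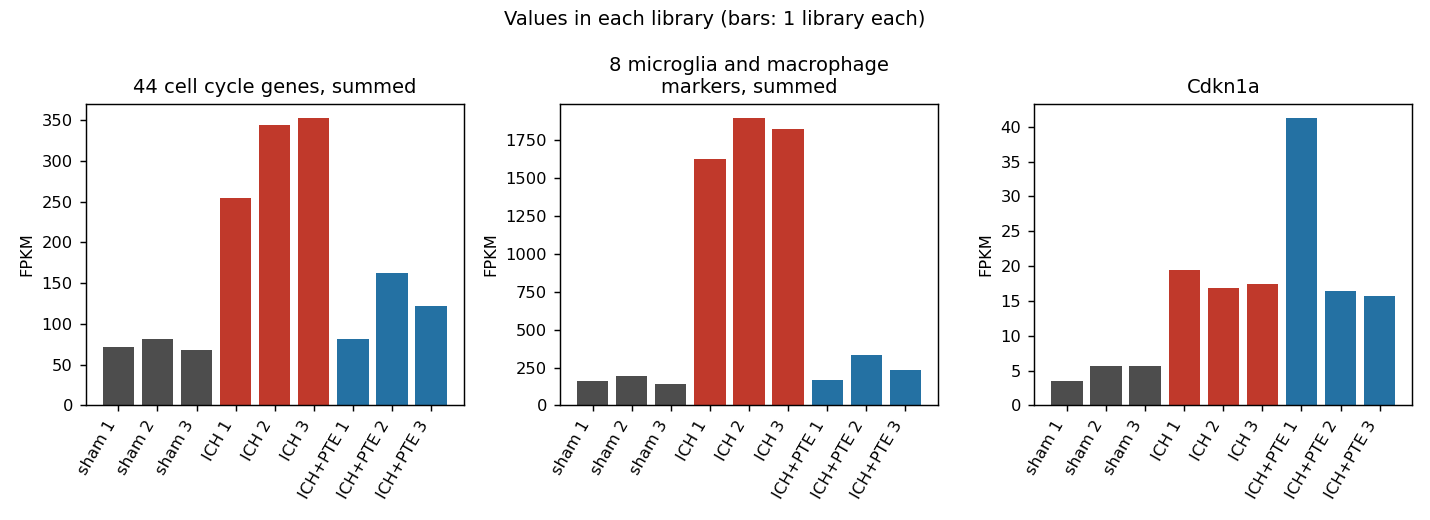
Summed FPKM of the 44 genes, summed FPKM of 8 microglia and macrophage markers, and FPKM of Cdkn1a, with 1 bar per library. In the first panels ICH stands highest and ICH+PTE 1 is at the sham level, while Cdkn1a is highest in ICH+PTE 1, at 41.3 FPKM.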

How the data were processed

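Brain poly(A) RNA of 9 mice was sequenced by the authors from strand-marked (dUTP) libraries, per the labels' protocols. The authors deposited 1 table of FPKM values for all libraries, and the submitters' processing notes name StringTie 1.3.4d, HISAT2 2.0.4 and cutadapt 1.9. Which genome build they used is not given in the sources at hand, and 41 of the 44 genes had the same start and end as in GENCODE M21 (GRCm38). Each value column was matched to a library by name, and 0 were left unmatched. Whole reads could not be recovered, since 20.7% to 25.5% of low values of single-exon genes lay within 0.05 of a whole multiple against 10% by chance, so no count model was used.

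Genes with at least 1 FPKM in at least 3 libraries (15376) entered limma 3.58.1 (R 4.3.3) on log2(FPKM + 0.5), with 1 mean per group over all 9 libraries, a mean-variance trend, and two-sided tests with Benjamini-Hochberg adjustment over all tested genes. A fold on this scale understates changes of low genes. The fit was checked on simulated data. Alternatives were other pseudocounts, filters, scalings and weights, fits of fewer groups, a replicate block, and leaving out each library. All 44 genes were to be named, 21 listed ones and those that differ from their role group with every value. In other cell cycle lists the inhibitors, D cyclins and G1 kinases and the 2 most abundant genes in ICH were named. Genes and lists were chosen with earlier results of these data known. Fabp1 and Fabp2, and the markers set apart from their list sums, were chosen after their values were seen. Of the 44, 9 are overlapped on the opposite strand by a gene with a mean of at least 1 FPKM.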

Additional observations from a re-analysis of the deposited data

How the results depend on the processing

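Of the calls among the 40 tested genes, 37 of 38 for ICH against sham, 34 of 37 for ICH+PTE against ICH and 5 of 11 for ICH+PTE against sham held in every setting that tested the gene. Signs changed for uncalled differences: Ccne2 after ICH (-0.00993 with TPM, -0.12 without haemoglobin and mitochondrial genes), Ccne1 after ICH (-0.0257 in the latter setting), and Gins2 in ICH+PTE against sham (-0.0396 with TPM, -0.0763 with quantile normalization, and -0.24 to 0.51 without single libraries). The 11 genes higher in ICH+PTE than in sham became 5 with no filter, 6 with only the groups compared, 17 with array weights and 6 to 28 with single libraries left out. The cause was not tested. The setting without haemoglobin and mitochondrial genes also scaled the rest of each library to a common total. For all tested genes it moved the median by -0.27 for ICH against sham, where 3486 were higher and 7037 lower (4862 and 4936 as deposited). For ICH+PTE against ICH it moved the median by 0.24, where 6114 were higher and 3149 lower (4065 and 4683), 1 of the 40 (Ccne2) among the higher. Relative to the median of all genes, the 40 stood at 1.99 as deposited and 2.01 in that setting for the first, and at -1.31 and -1.32 for the second. TPM, which scales to a common total with all genes kept, moved the median by -0.15 for ICH against sham and 0.03 for ICH+PTE against ICH. TPM gave 1253 higher and 2972 lower for ICH+PTE against sham (1736 and 1867), and 4008 higher and 6000 lower for ICH against sham. With single libraries left out, 1019 to 1925 were higher and 1063 to 1769 lower for ICH+PTE against sham. The labels give no pairing of mice across groups. Deviations of same-numbered libraries correlated at 0.00313 to 0.252, all above 0 but not all over 0.1, and those of other pairs at -0.302 to 0.19, so the numbers were not used as pairs and a shared source is not shown either way. With the replicate block, 16 of the 40 were higher in ICH+PTE than in sham and 38 were lower than in ICH. Depth is unknown, which limits what can be said of genes under 1 FPKM.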
